A study of Mus musculus with 6 samples.

Results

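Open chromatin centred on protein-coding sequence was described in adipocytes differentiated in culture from the stromal vascular fraction of mouse fat. A region was counted as coding-centred where the strongest summit of a peak lay in an annotated coding segment of a protein-coding transcript and over 1 kb from every protein-coding transcription start site. The intervals of the 6 peak lists that met this rule were merged into 4627 regions, out of 194610 merged regions in all. They lay in 3623 genes, which are 16.6% of the 21851 protein-coding genes of the annotation.

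The libraries were made by assay for transposase-accessible chromatin with sequencing (ATAC-seq), in which a transposase cuts and tags DNA that is not packed into nucleosomes, with 50000 nuclei a library. There were 2 libraries each of beige, white and brown adipocytes, all from wild type C57BL/6J mice that were male and 3 to 4 weeks old, and all collected at day 7 of differentiation. The beige and white cells came from subcutaneous adipose tissue and the brown cells from brown adipose tissue. The beige and the brown medium held 5 μM dexamethasone, 0.5 mM isobutyl methylxanthine, 5 μg/ml insulin, 1 nM T3 and 1 μM rosiglitazone, an agonist of the adipocyte receptor PPARγ. The white medium held 1 μM dexamethasone with the same isobutyl methylxanthine and insulin, and neither T3 nor rosiglitazone. The insulin dose is that of the labels, and the study's methods give other doses, which differ between the beige and the white medium. Beige and white therefore came from the same depot in different media, whereas brown differed from beige by its labels in the depot. The study's paper describes the beige and white libraries and not the brown ones. Any other difference in how brown was made cannot be told apart from the depot. The cells were a cultured mixture that was not sorted, so that fewer open cells and less opening per cell cannot be told apart.

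Coding exons carry the protein code, and some also hold binding sites of transcription factors, so that a stretch of DNA can serve as an exon in one tissue and as an enhancer in another. AP1, a dimer of Fos and Jun proteins, is a frequent occupant of open enhancers. CTCF, a zinc finger protein, anchors chromatin loops and often binds a long site that is rich in G and C.

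The sequences at the summits are shown for the regions on which the later comparisons turn. Each is the plus strand of mm10 at the strongest summit with 50 bases to each side of it, and capitals mark a match on either strand to one of 11 consensus sequences that were searched. The AP1 consensus was searched as TGANTCA, with a free middle base. It is seen in 3 of the strongest regions open in all 6 libraries (Fry, Ash1l and Foxn2), in Egfr and in a region called in beige and brown only. The middle base is G in Fry, Foxn2 and 9330159F19Rik, T in Ash1l and A in Egfr. Binding was not measured. In Foxn2 the capitals before the AP1 match are a direct repeat as bound by PPARγ with its partner RXR (DR1). A second set holds the long CTCF consensus, in regions called in beige alone (Ptp4a3), in beige and brown (Rin1 and Eml2) and in all libraries (Klf4). The last 3 hold no match of any family in these windows, and come from Pparg in all libraries, from Itsn2 in white alone and from Cavin2 in brown alone.
Fry, chr5:150466314-150466414: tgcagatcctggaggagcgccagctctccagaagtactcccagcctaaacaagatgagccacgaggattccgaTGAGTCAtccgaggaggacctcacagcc
Ash1l, chr3:88984194-88984294: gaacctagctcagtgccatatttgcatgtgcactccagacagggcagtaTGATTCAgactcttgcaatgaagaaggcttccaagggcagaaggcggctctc
Foxn2, chr17:88462811-88462911: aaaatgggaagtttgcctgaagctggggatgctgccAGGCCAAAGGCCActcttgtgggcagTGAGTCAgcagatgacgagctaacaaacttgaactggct
Egfr, chr11:16878079-16878179: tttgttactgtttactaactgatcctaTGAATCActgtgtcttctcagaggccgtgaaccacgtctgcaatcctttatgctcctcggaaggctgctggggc
9330159F19Rik, chr10:29225357-29225457: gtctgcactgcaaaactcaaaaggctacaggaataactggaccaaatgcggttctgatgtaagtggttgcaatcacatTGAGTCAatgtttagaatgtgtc
Ptp4a3, chr15:73755262-73755362: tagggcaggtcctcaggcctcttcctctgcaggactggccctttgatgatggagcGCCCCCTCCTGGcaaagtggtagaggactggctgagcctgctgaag
Rin1, chr19:5053937-5054037: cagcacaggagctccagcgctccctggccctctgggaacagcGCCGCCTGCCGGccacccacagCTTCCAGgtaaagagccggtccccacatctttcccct
Eml2, chr7:19179281-19179381: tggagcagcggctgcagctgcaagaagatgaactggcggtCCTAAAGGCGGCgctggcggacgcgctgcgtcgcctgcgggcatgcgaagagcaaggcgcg
Klf4, chr4:55530404-55530504: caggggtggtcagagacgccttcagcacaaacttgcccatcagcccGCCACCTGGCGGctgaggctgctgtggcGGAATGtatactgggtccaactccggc
Pparg, chr6:115463084-115463184: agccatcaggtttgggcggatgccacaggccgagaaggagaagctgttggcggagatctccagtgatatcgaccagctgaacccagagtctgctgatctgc
Itsn2, chr12:4640875-4640975: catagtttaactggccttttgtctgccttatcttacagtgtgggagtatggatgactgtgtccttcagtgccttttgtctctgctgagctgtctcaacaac
Cavin2, chr1:51300711-51300811: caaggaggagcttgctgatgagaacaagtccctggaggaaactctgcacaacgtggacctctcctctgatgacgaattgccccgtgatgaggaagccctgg
Besides these, capitals mark an ETS match (CNGGAAG) behind the CTCF match of Rin1 and a TEAD match (GGAATG) behind that of Klf4.

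Coding-centred intervals made up a small share of every list. There were 1765 among 118812 intervals in beige replicate 1 and 1906 among 127490 in beige replicate 2. White replicate 1 had 2328 among 120473 and white replicate 2 had 1824 among 119385. Brown replicate 1 had 1813 among 113861 and brown replicate 2 had 1952 among 109143. The share was thus 1.49% and 1.50% in beige, 1.93% and 1.53% in white and 1.59% and 1.79% in brown, with a mean of 1.64% ± 0.183 (SD, n = 6 libraries). White replicate 1 (95% Clopper-Pearson interval 1.86% to 2.01%) and brown replicate 2 (1.71% to 1.87%) stood above the other 4. The means of the 3 conditions were 1.49%, 1.73% and 1.69%, and the white replicates were further apart than any pair of these means. These intervals cover counting error only. Coding sequence over 1 kb from a start site takes up 30486371 bases, or 1.12% of the genome, so the share of summits in it was 1.46 times its share of the genome, and between 1.33 and 1.73 times in single libraries. Left without white replicate 1 and brown replicate 2, the mean share was 1.53% and the merged regions numbered 3302.

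Because folds of separate peak calls are not comparable, the fold of each interval was used only as its percentile within its own list. The median coding-centred interval stood at percentile 41.3 and 40.5 in beige, 32.5 and 39.8 in white and 36.6 and 34.3 in brown. Intron-centred intervals, whose summit lies in a protein-coding gene outside every annotated exon and over 1 kb from a start site, had medians between 45.4 and 46.4. Promoter intervals stood at 59.8 to 73.1. The coding-centred median was the lower in 6 of 6 libraries, with a mean of 37.5 ± 3.59 against 46.2 ± 0.362 (SD, n = 6; exact two-sided sign-flip permutation test over libraries, p = 0.031, adjusted p = 0.0409 by Benjamini-Hochberg over 17 measures). This p is the smallest that 6 libraries allow, and since the libraries share many of their regions it speaks for the consistency over libraries and not for independent regions. The 2 libraries with the largest share of coding-centred intervals also had the lowest ranks and the fewest with a q value under 0.00001, which were 61.0% in white replicate 1 and 62.6% in brown replicate 2 against 69.4% to 80.1% in the others. Between 80 and 127 coding-centred intervals of a list belonged to the top decile of all its intervals.

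**Figure D1:**
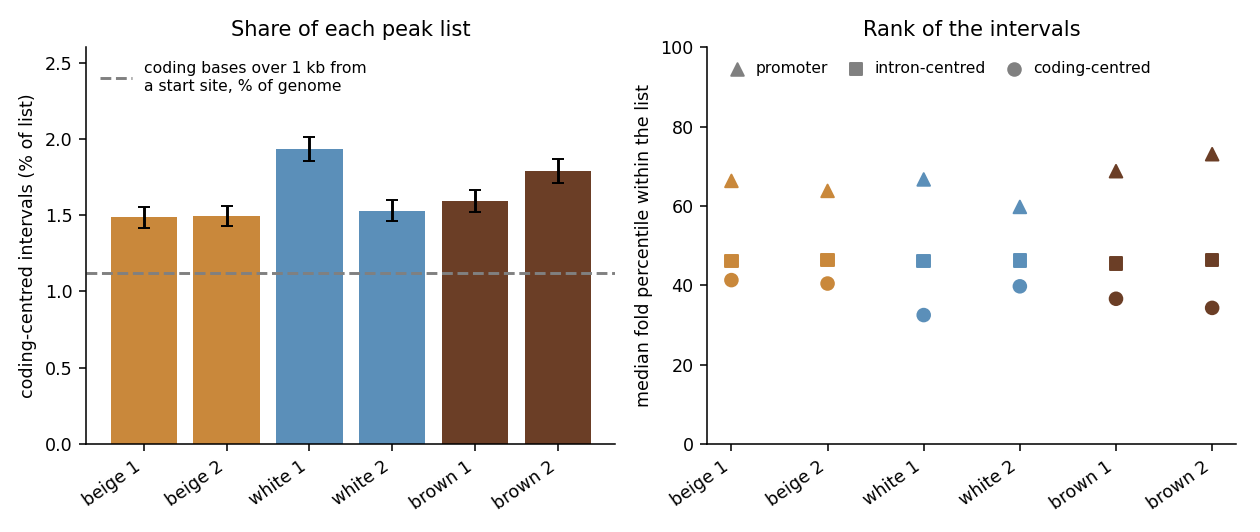
Left, bars give the share of each peak list that is coding-centred (% of intervals), with 95% Clopper-Pearson intervals, and the dashed line is the share of the genome that is coding and over 1 kb from a start site (1.12%). Right, the median fold percentile within each list is plotted by library for promoter (triangles), intron-centred (squares) and coding-centred intervals (circles). Every bar is above the dashed line and every circle is below its square.

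The promoters of marker genes were used as a check for adipocytes in general, and could not tell beige, white and brown apart. A promoter peak was present in all 6 libraries for 10 of 10 adipocyte markers, which included Adipoq and Fabp4. Of 10 macrophage markers 2 had one in all libraries, and Ptprc, Csf1r, Itgam, Mrc1, Fcgr1 and Cd163 had none in any. Of 10 endothelial markers 4 had a peak in all libraries and Cdh5, Emcn and Vwf had none, while 7 of 10 markers of progenitor cells had one in all. The genes with a coding-centred region had a promoter peak in all 6 libraries in 71.5% and in no library in 15.7%, against 62.0% and 28.6% of all protein-coding genes. Thus 568 genes had an open coding exon and no promoter peak in any library.

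Most coding-centred regions were not seen in every library. A peak of 1 library only overlapped 1966 regions (42.5%), and peaks of all 6 overlapped 1154 (24.9%). Of intron-centred regions 38.1% were found in 1 library and 26.1% in all. Rank rose with the number of libraries, and the median of the mean fold percentile was 16.9 for regions of 1 library, 38.5 for regions of 5 and 62.7 for regions of 6. The median of the highest -log10 q rose from 3.71 to 34.8 between regions of 1 and of 6 libraries. Of the regions of 1 library, 665 (33.8%) came from white replicate 1 and 460 (23.4%) from brown replicate 2, whereas beige replicate 1 gave 147 (7.48%). Among intron-centred regions of 1 library the same 3 libraries gave 22.9%, 16.9% and 11.9%. The share of intervals that all other libraries overlapped was 46.7% ± 3.63 for coding-centred and 48.8% ± 3.95 for intron-centred intervals (SD, n = 6; exact sign-flip permutation test, adjusted p = 0.432), so no difference was seen beyond the spread of the libraries. Among windows of 50% to 60% GC, a comparison added after the data had been seen, these shares were 39.3% and 50.9% (adjusted p = 0.0409, exact sign-flip permutation test), and coding-centred intervals were the less shared in 6 of 6 libraries.

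**Figure D2:**
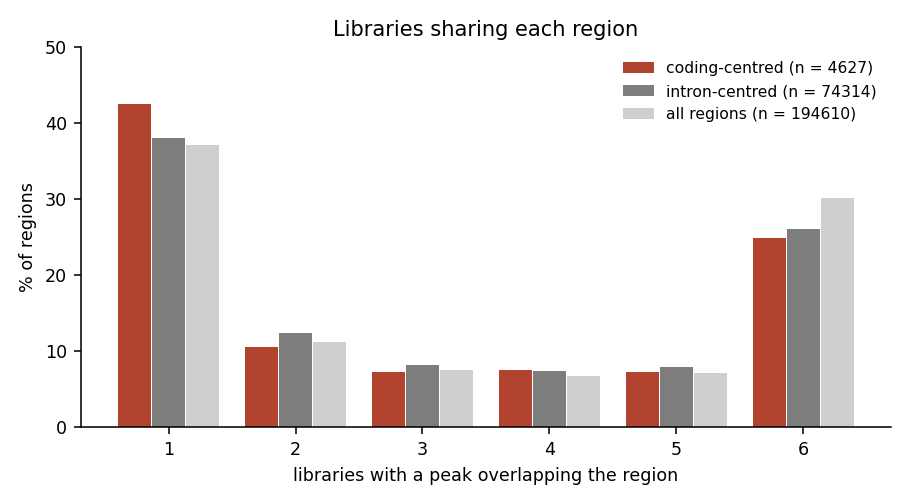
Bars give the percentage of regions (y axis) by the number of libraries with a peak in them (x axis), for 4627 coding-centred, 74314 intron-centred and 194610 merged regions of all kinds. Coding-centred regions have the tallest bar at 1 library (42.5%) and the shortest at 6 libraries (24.9%).

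The condition patterns compare which peaks were called and not how strong they were, since a missing call can also be a peak that just missed the threshold. Beige alone, that is both beige libraries and none of the other 4, held 62 coding-centred regions or 1.34%, where 1.94% of all merged regions had this pattern. White alone held 59 (1.28%, against 1.23% of all regions) and brown alone 44 (0.951%, against 0.877%). Beige and brown without white held 63 (1.36%, against 1.25%), beige and white without brown 54 (1.17%, against 1.16%), and white and brown without beige 10 (0.216%, against 0.243%). The pattern of all libraries held 24.9% of coding-centred and 30.2% of all regions, which include promoters. Of regions over 1 kb from a start site and not coding-centred it held 26.1%. The shares of white alone, brown alone and the patterns of 2 conditions thus lay close to the background. Those of beige alone and of all libraries were lower, the latter by less where promoters were left out. With 2 libraries against 2 an exact two-sided permutation test cannot go below p = 0.33, so conditions were not tested against each other.

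Regions of the condition patterns were mostly weak. The median of the lowest -log10 q in a pattern lay between 3.62 and 5.09, where the threshold of the authors is a q value of 0.05. In 31 of 62 beige alone regions, in 9 of 59 white alone and in 10 of 44 brown alone regions this lowest value was above 5. The counts also hang on every library. A class defined by 1 library alone, as is left when its replicate is dropped, held 271 regions without beige replicate 1 and 200 without beige replicate 2. White alone held 317 without white replicate 1 and 719 without white replicate 2, and brown alone held 499 without brown replicate 1 and 261 without brown replicate 2.

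Along the genes, coding-centred regions were denser in some exons than in others. There were 152 regions per Mb of coding sequence over 1 kb from a start site. In exons whose coding part was under 100 bp there were 91.4 per Mb, in those of 100 to 199 bp 126 per Mb, in those of 200 to 499 bp 184 per Mb and in those of 500 to 999 bp 214 per Mb, with 188 per Mb in exons of 1000 bp or more. By distance, the density was 276 per Mb from 1 to 2 kb off a coding start site and between 127 and 152 per Mb in every class beyond. The coding exon of genes with a single one had 216 per Mb, initial ones 265, internal ones 131 and last ones 194. These densities count 4559 regions against the longest coding transcript of each gene, and are descriptions without a test. The median region was 221 bp wide, 73.6% of its bases were coding and it lay 13058 bp from the nearest coding start site. In 1682 regions (36.4%) over 90% of the bases were coding.

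**Figure D3:**
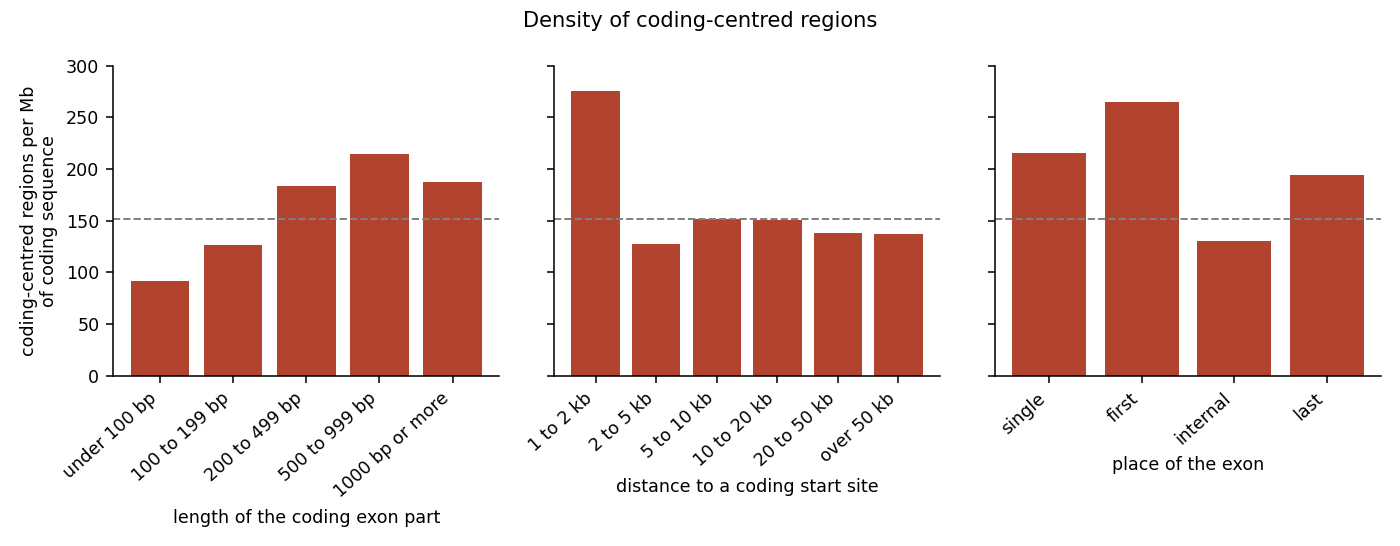
Bars give coding-centred regions per Mb of coding sequence over 1 kb from a start site. They are split by the length of the coding part of the exon, by the distance to the nearest protein-coding start site and by the place of the exon in its transcript. The dashed line is the density over all coding sequence over 1 kb from a start site (152 per Mb). The highest bars are those from 1 to 2 kb (276) and of initial coding exons (265).

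The rule took only protein-coding start sites into account. Start sites of other transcripts lay within 1 kb of 1028 regions (22.2%), of which 29.8% had a peak in all libraries, against 23.6% of the rest. Just past the limit, at 1001 to 1100 bp from a coding start site, there were 277 coding-centred intervals over the 6 lists with a median fold percentile of 17.6. At 900 to 1000 bp, where the rule assigns intervals to promoters, 343 summits in coding sequence had a median of 18.1. The 32 bases at the summit occurred more than once in the genome in 79 regions (1.71%), and reads of these regions could belong to another copy.

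The sequence at coding-centred summits differed from that at intron-centred summits in 12 of the 14 features measured in windows of 100 bp to each side. The GC content was 58.7% ± 0.311 in coding-centred and 49.8% ± 0.506 in intron-centred windows (SD, n = 6 libraries), and the observed over expected frequency of CpG was 0.514 ± 0.00913 against 0.231 ± 0.00131. Repeat bases made up 4.29% ± 0.233 and 10.3% ± 0.373. Each of these 3 differences had the same sign in 6 of 6 libraries and an adjusted p of 0.0409 in the exact sign-flip permutation test, as had every consensus difference called below. Windows in coding stretches with no peak had a GC content of 48.6%, a CpG value of 0.328 and 8.42% repeat bases. The high GC content was thus found at coding-centred summits and not in the coding stretches with no peak, a comparison that was not tested.

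AP1 matches were less frequent in exons. In beige they were found in 11.1% and 11.6% of coding-centred windows, against 26.1% and 25.6% of intron-centred windows. In white the shares were 11.3% and 9.92% against 27.8% and 25.2%, and in brown 13.4% and 11.7% against 30.3% and 27.3%. The ranges of coding-centred and intron-centred windows did not overlap, with means of 11.5% ± 1.13 and 27.1% ± 1.86 (SD, n = 6; adjusted p = 0.0409, exact sign-flip permutation test). AP1 was nevertheless more frequent than in coding stretches with no peak, where 4.58% of 170242 windows held it.

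CTCF went the other way. Its consensus, in which CC is followed after 3 free bases by AGG and after 1 more by GGC, was found in 9.58% and 10.6% of the coding-centred windows in beige, in 7.56% and 8.06% in white and in 8.71% and 8.30% in brown. In intron-centred windows the share was 3.99% to 5.03%, and in coding stretches with no peak 1.11%. The means were 8.80% ± 1.11 and 4.46% ± 0.412 (SD, n = 6; adjusted p = 0.0409, exact sign-flip permutation test). Both beige libraries were above the other 4, in intron-centred windows (5.03% and 4.89% against 3.99% to 4.35%) as well as in coding-centred ones.

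The families CEBP (TTGCNNAA), bound by adipogenic C/EBP factors, TEAD, bound by partners of YAP and TAZ, and RUNX (TGTGGTT) were less frequent in coding-centred than in intron-centred windows. Their shares were 9.23% against 14.1%, 9.83% against 15.9% and 2.91% against 5.83%. The glucocorticoid response element GRE, to which the receptor for dexamethasone binds, was rare in both and held by 0.489% against 0.749%. ETS, bound by Ets1 and its relatives, was more frequent in coding-centred windows, with 24.7% ± 1.02 against 19.7% ± 0.398 (SD, n = 6; adjusted p = 0.0409, exact sign-flip permutation test). Coding stretches with no peak held ETS in 20.6%, TEAD in 10.5%, CEBP in 8.00%, RUNX in 3.44% and GRE in 0.440%. The coding-centred windows thus held ETS, CEBP and GRE more often than these stretches, and TEAD and RUNX less often. The GC content of the stretches with no peak was 48.6%, against 58.7% in coding-centred windows. For no family, AP1 and CTCF included, was the comparison with stretches with no peak made within a GC range or tested.

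The difference in base composition moved with several of these results. In windows of 50% to 60% GC alone, the difference was -8.00 percentage points for AP1, 2.17 for CTCF, -3.52 for TEAD, 3.08 for ETS, -1.58 for RUNX and -0.33 for GRE, with 6 of 6 libraries of 1 sign. There CEBP differed by -0.789 points (adjusted p = 0.106, exact sign-flip permutation test). Base composition was not made equal within this range. GC content was 55.2% in coding-centred and 53.9% in intron-centred windows, and the CpG value 0.371 against 0.237. The GC box SP (GGGGCGGGG), at 1.90% against 1.11% over all windows, turned its sign to -0.664 points in this range (adjusted p = 0.0409, exact sign-flip permutation test). NFI, a palindrome of TTGGC and GCCAA, was found in 0.0249% against 0.0785% of windows, which is 1 coding-centred window at most in a library, and was no longer called in this range (adjusted p = 0.266, exact sign-flip permutation test). DR1 (0.537% against 0.539%) and the cAMP response element CRE (TGACGTCA, 0.586% against 0.538%) were not called, with adjusted p of 0.969 and 0.283 in the exact sign-flip permutation test.

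**Figure D4:**
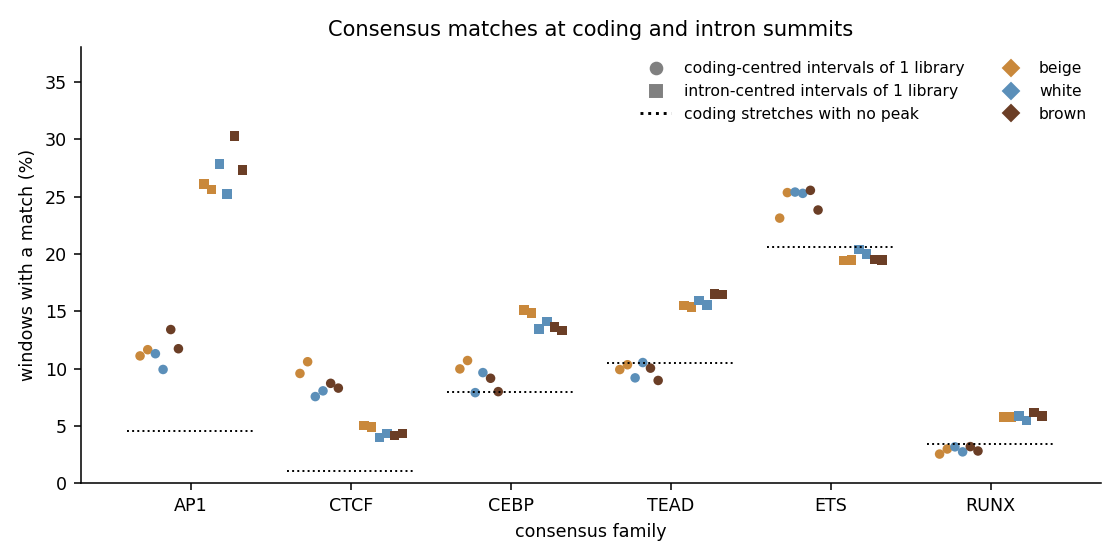
The percentage of windows (100 bp to each side of the summit) with a consensus match (y axis) is plotted for 6 families (x axis), with a circle for the coding-centred and a square for the intron-centred intervals of each library, coloured by condition, and a dotted line for coding stretches with no peak. AP1 circles (9.92% to 13.4%) lie between the dotted line (4.58%) and the squares (25.2% to 30.3%), and CTCF circles (7.56% to 10.6%) above both.

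Among merged regions, both AP1 and CTCF were more frequent in regions of all libraries than in those of 1 library. AP1 was found in 13.3% of the 1154 coding-centred regions of all libraries and in 6.92% of those of 1 library, and CTCF in 11.7% and 3.05%. Intron-centred regions of all libraries held AP1 in 33.5% and CTCF in 5.92%. By condition, CTCF was found in 10 of 62 beige alone regions (16.1%, 95% Clopper-Pearson interval 8.02% to 27.7%) and in 7 of 63 regions of beige and brown (11.1%, 4.59% to 21.6%). It was found in 1 of 59 white alone regions (1.69%, 0.0429% to 9.09%), in 1 of 54 regions of beige and white (1.85%, 0.0469% to 9.89%) and in 3 of 44 brown alone regions (6.82%, 1.43% to 18.7%). Intron-centred regions of beige alone held it in 7.87%, those of white alone in 1.71% and those of brown alone in 1.64%. Those of beige and brown held it in 2.32% and those of beige and white in 5.45%. The order of these last 2 patterns was thus the reverse of that in coding-centred regions. These intervals cover counting error within the classes, and the conditions were not tested against each other.

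The percentile of a region in a library is that of the strongest peak of this library that overlaps it. The summit of that peak can lie outside the coding exon. The 10 regions with a peak in all libraries and the highest mean fold percentile lay in genes of varied function. First was an internal exon of Fry, a large protein of cell polarity and spindle organisation, at chr5:150466029-150466748 in coding exon 52 of 61. Its percentile was 99.6 and 99.4 in beige, 97.2 and 99.9 in white and 99.5 and 99.8 in brown. The AP1 match shown above lies within 50 bases of its summit. All 6 libraries placed this exon among the top 3% of their peaks.

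Lyst, a regulator of lysosomal trafficking, had its region in coding exon 21 of 51, with percentiles of 97.6 and 97.0 in beige, 97.7 and 99.8 in white and 99.7 and 99.1 in brown. Ash1l, a histone H3K36 methyltransferase, had it in its exon 2 of 4558 coding bases, with 96.4 and 99.1 in beige, 98.4 and 98.4 in white and 98.2 and 97.4 in brown. Foxn2, a forkhead factor, had it in its initial coding exon, 22150 bp from a coding start site, with 99.7 and 95.6 in beige, 98.5 and 99.2 in white and 96.4 and 96.4 in brown. In Lyst both beige libraries ranked below the other 4, and in Ash1l and Foxn2 both white libraries ranked above both brown ones, all within the top 5% of the lists.

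The other 6 were in 4930564D02Rik, Magix, the cytochrome P450 gene Cyp4f13, the homeobox gene Rax, the inositol phosphatase gene Inpp5b and Prdm2, a zinc finger gene of the PR domain family, with mean percentiles from 97.5 to 98.5. Of these, the Cyp4f13 summit sequence of 32 bases has 4 copies in the genome, the Inpp5b summit is 184 bp from the start of another transcript, and in Prdm2 only 1 of the 6 libraries had its strongest summit in the coding exon, in a region that is 1107 bp wide and 11.5% coding. In Rax the strongest summit was coding in 4 libraries. Magix, on the X chromosome, holds a CTCF match within 100 bp of its summit.

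The regions of beige alone with the highest lowest -log10 q were in Ptp4a3, BC034090 and Xpo7. Ptp4a3, a protein tyrosine phosphatase, had it in coding exon 3 of 5 with a -log10 q of 16.7 and 19.8 in the 2 beige libraries and no peak in white or brown. BC034090 had 14.2 and 16.3, and Xpo7, a nuclear transport receptor, 14.0 and 27.5. Their percentiles were 48.0 to 54.1 for the former pair and 69.2 and 84.2 for Xpo7, so these were peaks of the middle ranks and above.

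White alone was led by Itsn2, Paqr6 and Smad1. In Itsn2, a scaffold protein of endocytosis, an exon of 81 bp had -log10 q values of 12.9 and 15.0 in white. Paqr6, a membrane progestin receptor, had 12.6 and 8.74, and its summit sequence has 2 copies in the genome and lies 524 bp from a transcript start. Smad1, which carries the signal of bone morphogenetic proteins, had 8.83 and 8.58 in its last exon. No beige or brown library had a peak in these 3.

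Brown alone was led by Tubb5, Cavin2 and Marcks, each in its last coding exon. Tubb5, a β-tubulin, had -log10 q values of 11.2 and 8.38 at percentiles of 10.6 and 9.65. Cavin2, a coat protein of caveolae, had 7.63 and 8.93 at percentiles of 24.1 and 40.3. Marcks, an actin-binding substrate of protein kinase C, had 7.46 and 8.23 at percentiles of 1.43 and 3.64, with a GC content of 83.6% at the summit. These regions were therefore called with low folds, in contrast to those named for beige alone. Over the whole classes the median of the mean percentile was 30.8 in beige alone, 19.1 in white alone and 21.2 in brown alone.

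Beige and brown, which shared the medium, were joined by 9330159F19Rik, Rin1 and Eml2. The 9330159F19Rik region, which holds AP1, had percentiles of 79.5 and 87.9 in beige and 80.3 and 86.5 in brown. Rin1, an effector of Ras, had 35.9 and 53.4 in beige and 12.7 and 48.7 in brown, and Eml2, a microtubule-associated protein, had 50.4 and 60.7 in beige and 38.2 and 53.0 in brown. The summits of both hold CTCF. In Rin1 the lowest -log10 q was 12.9 and in Eml2 11.7. Only 2 libraries had their own strongest summit in coding sequence in Rin1, as in 9330159F19Rik.

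Beige and white, which shared the depot, were joined by Pofut1, which fucosylates Notch receptors, by Usp54 and by Dock3, an activator of Rac. In Pofut1 the percentile was 62.5 and 62.8 in beige and 75.2 and 80.5 in white. In Usp54 it was 63.2 and 98.2 in beige and 85.3 and 84.7 in white, with the coding summit in 1 library only. In Dock3 it was 65.0 and 68.7 in beige and 68.4 and 84.0 in white, with the coding summit in 2 libraries. White and brown without beige was the smallest class, and its leading regions were in Vgll2, a cofactor of TEAD, Gpc5, a glypican, and Zcwpw1, with lowest -log10 q values of 5.52 to 6.11.

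Of the genes of brown and beige fat function, 8 of 25 had a coding-centred region (32%, against 16.6% of all genes), 2 of them in all libraries. This is 20.5 regions per 100 kb of coding sequence against 13.0 over all genes. Here and below, densities per 100 kb count all coding sequence of the genes (35502.8 kb over all genes). They include the part within 1 kb of a start site, where the rule allows no region, and so differ from the densities per Mb above. Adrb3, the adrenergic receptor through which cold activates fat, had percentiles of 74.1 and 67.1 in beige, 38.9 and 63.8 in white and 75.5 and 62.3 in brown. The summit lay 1126 bp from the start site and only 1 library had its own strongest summit in coding sequence. Kcnk3, a potassium channel, had 8.92 and 10.4 in beige, 29.6 and 26.2 in white and 11.1 and 6.45 in brown. Here both white libraries ranked above the 4 others. Dio2, which activates thyroid hormone, had an open last exon with AP1 in 4 libraries, at 28.9 and 46.8 in beige, 69.3 in white replicate 2 and 8.08 in brown replicate 1. The regions of Slc27a2 were seen in 2 libraries, and those of Ebf2, Prdm16, Ppargc1a and Ppargc1b in 1 library each. Ucp1, Cidea and Elovl3 had none.

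Among genes of adipocytes and lipid metabolism 10 of 35 had a region, with 15 regions in all and 5 of them in all libraries, or 19.1 regions per 100 kb of coding sequence against 13.0 over all genes. Pparg, the master regulator of adipogenesis, had the strongest, at chr6:115462731-115463338 in coding exon 5 of 7. Its percentile was 87.2 and 91.7 in beige, 98.1 and 95.1 in white and 96.6 and 95.9 in brown, and 5 of 6 libraries had their own strongest summit in the exon. AP1, TEAD and ETS matches lay within 100 bp of the summit, outside the window shown. The 2 beige libraries were the lowest of the 6.

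Acacb, the mitochondrial acetyl-CoA carboxylase, had percentiles of 82.9 and 86.0 in beige, 62.4 and 78.5 in white and 61.4 and 59.4 in brown, in a region with a CTCF match and 72 bp from a transcript start. Plin1, which coats the lipid droplet, had 53.6 and 63.4 in beige, 75.3 and 66.3 in white and 77.0 and 68.7 in brown, in its last exon. In Acacb beige was above the 4 other libraries and in Plin1 below them. Srebf1, which drives lipogenesis, had 56.4 and 61.7 in beige, 2.23 and 63.9 in white and 40.0 and 47.9 in brown, and Irs2, an adaptor of the insulin receptor, 17.7 and 22.5, 42.8 and 24.7, and 22.3 and 48.5. In Srebf1 the white replicates stood at opposite ends, but only 1 library had its own strongest summit in coding sequence. The percentiles of Srebf1 can therefore belong to different peaks. Regions in Plin4, Irs1, Lpin1, Mlxipl and Insr were seen in 1 to 5 libraries.

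Matrix and progenitor genes had regions in 17 of 35 genes, 30 in all, with 8 in all libraries. This is 48.6% of the genes, against 16.6% of all genes, and 18 regions per 100 kb of coding sequence, against 13.0. Egfr, the receptor of epidermal growth factor, had percentiles of 73.0 and 80.4 in beige, 88.0 and 87.6 in white and 77.5 and 83.3 in brown, at an exon 21 bp from the start of another transcript and with the AP1 match shown above. White ranked above beige and brown. Hspg2, the heparan sulfate proteoglycan perlecan, had 72.4 and 60.1 in beige, 51.7 and 53.9 in white and 87.9 and 78.1 in brown, so that the 3 conditions did not overlap. Tnxb, a tenascin, had 67.8 and 66.2 in beige, 79.6 and 78.7 in white and 77.3 and 83.0 in brown. Col5a2 had 82.5 and 93.7, 77.3 and 99.5, and 75.3 and 50.7 in beige, white and brown, and Col6a3 72.1 and 80.2, 51.9 and 1.16, and 76.2 and 82.2. The white replicates of both collagens stood far apart. In Tnxb and in Col5a2 only 2 libraries had their own strongest summit in coding sequence. Ranks of 2 libraries a condition carry no test.

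Genes of chromatin regulation had regions in 23 of 49 (46.9%, against 16.6% of all genes). There were 39 in all, with 5 in all libraries (12.8%, against 24.9% of all regions) and 22 in 1 library alone. Their long coding sequence gave 14.4 regions per 100 kb, close to 13.0 over all genes. Ep300, the acetyltransferase p300, had its strongest region in the last exon, with 91.1 and 93.2 in beige, 87.8 and 84.7 in white and 90.7 and 84.7 in brown, and it holds AP1. Kmt2a, an H3K4 methyltransferase, had 79.3 and 84.6 in beige, 62.5 and 57.3 in white and 57.6 and 77.2 in brown. Ncoa2, Arid1a and Hdac9 had mean percentiles of 60.7, 60.3 and 57.7, and in Hdac9 only 1 library had the coding summit. Of the study's candidates, Ets1 had no region. Klf4 had a region in all libraries, in an exon of 985 coding bases 2012 bp from the start site, at 4.92 and 11.3 in beige, 27.1 and 33.3 in white and 5.74 and 23.5 in brown. Both white libraries ranked above beige and brown in Klf4, whereas they ranked below them in Hspg2 and in the strongest region of Sptbn4. Such orders in single regions were not tested.

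Gene families taken by their symbols are described beside all genes, of which 16.6% had a region. Of all coding-centred regions 24.9% had a peak in all libraries and 42.5% in 1 library. Differences between families were not tested. Protocadherins, which are cell adhesion receptors with very long exons, had regions in 37 of 69 genes and 26.2 regions per 100 kb of coding sequence, against 13.0 over all genes. Yet only 3 of their 51 regions (5.88%) had a peak in all libraries and 40 were seen in 1 library. The 3 were in Pcdh8, Pcdh20 and Pcdh18. Pcdh8 had percentiles of 72.5 and 79.7 in beige, 67.1 and 54.5 in white and 50.5 and 52.7 in brown, and its summit lies 28 bp from a transcript start.

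Olfactory receptors, which have a coding sequence of 1070 kb in 1134 genes, had 7 regions, 0.654 per 100 kb, and none in all libraries. How much of this sequence lies within 1 kb of a start site, where the rule allows no region, was not measured. Zinc finger genes (by symbols such as Zfp, Zbtb, Zkscan and Zscan) had 95 regions in 72 of 467 genes, 16 of them in all libraries and 60 in 1 library, which is 10.7 per 100 kb. The share of genes with a region was 15.4%, near the 16.6% of all genes. The share of regions in all libraries was 16.8%, against 24.9% of all regions. The strongest was in Zfp771, at 96.6 and 90.3 in beige, 90.2 and 94.7 in white and 96.0 and 96.3 in brown. Zfp697 had a mean percentile of 91.7 in its last exon, Zfp609 of 85.9 and Zfp462 of 72.6. These genes share similar repeats, and all 4 summits have 1 copy of their 32 bases in the genome.

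Adamts genes, which encode metalloproteases of the matrix and relatives, had 21 regions in 12 of 24 genes (23.6 per 100 kb) with 7 in all libraries, led by Adamts20 (mean percentile 67.7), Adamtsl5 (66.1) and Adamts2 (55.6). Potassium channel genes had 31 in 27 of 94 genes (20.1 per 100 kb) with 10 in all libraries, and mean percentiles of 69.7 in Kcnma1 and 69.0 in Kcnk15. Collagen genes had 29 in 18 of 45 with 4 in all libraries, and solute carriers 74 in 67 of 371 with 14 in all, led by Slc9a4 (88.6) and Slc8a3 (87.8). At 14.4 and 12 regions per 100 kb, both lay near the 13.0 of all genes. Keratins had 13 in 12 of 53 genes (16.4 per 100 kb) with 3 in all libraries, which were Krt88, Krt1 and Krt77. The share of regions in all libraries was 33.3% for Adamts genes, 32.3% for potassium channels and 13.8% for collagens. It was 18.9% for solute carriers and 23.1% for keratins, against 24.9% of all regions. The share of genes with a region was 50%, 28.7%, 40%, 18.1% and 22.6% in the same order, against 16.6% of all genes. Hox genes, which set position along the body axis, had 7 in 7 of 39 genes (19.8 per 100 kb). These are 17.9% of the genes, near the 16.6% of all genes. Hoxb2 and Hoxb4 had peaks in all libraries, whereas Hoxb8 had them in beige and white only, at 14.7 and 48.0 in beige and 35.4 and 18.8 in white. Hoxc9 had 29.5 and 35.2 in beige, 0.251 in white replicate 1 and no peak in white replicate 2, and 77.6 and 68.5 in brown.

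Most genes had 1 region (2869 genes), 580 had 2 and 174 had 3 or more. Syne1, the giant nesprin that ties nuclei to actin, had 10 over 145 coding exons, of which 3 were in all libraries and 5 in 1 library. Dst, a linker of the cytoskeleton, and Sptbn4, a β-spectrin, had 8 each. The strongest Sptbn4 region had percentiles of 97.9 and 97.0 in beige, 86.0 and 75.5 in white and 96.1 and 99.2 in brown, with both white libraries below the others. Ccdc162 had 6, with mean percentiles from 5.78 to 73.5.

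Sfi1, a centrosomal protein, stood apart from these. Of its 7 regions 5 had a peak in all libraries, yet mean percentiles ran from 0.0301 to 22.1, and 6 of the 7 were at 1.23 or below. The -log10 q values of these 6 reached from 3.55 to 25.7, so the peaks passed the threshold with folds at the bottom of their lists. The 32 bases at each Sfi1 summit occur once in the reference genome.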

How the data were processed

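ATAC-seq peak lists of 6 libraries were analysed. The authors trimmed the reads, aligned them to mm10 with BWA and called peaks with MACS2 per library at a q value under 0.05; methods are described for beige and white, and brown is known from its labels. The deposited fold is a ratio of the pileup at a summit over local background, and the deposited -log10 q and -log10 p belong to the same summit; the deposited score was not used. Lists hold no read counts, and the read depths that the study states for beige and white were not used here.

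Summits sharing an interval were counted once, at the highest -log10 q. Summits were classified on GENCODE M21 basic, which is GRCm38 (mm10), and an overlap of 1 bp joined intervals. Consensus sequences were looked for in either orientation within 100 bp of the summit. Python 3.11.15 with numpy 2.4.6, pandas 2.3.3, scipy 1.17.1 and matplotlib 3.10.9 was used, and classification, search and test were tested on simulated data. Coding-centred and intron-centred values were compared within libraries by an exact sign-flip permutation test over 17 measures with Benjamini-Hochberg adjustment.

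The members, lists and tests were chosen with earlier results of these data known. Named regions are the 10 of all libraries with the highest mean percentile, 3 per condition pattern with the highest lowest -log10 q, the 5 genes with most regions, up to 5 per gene list and 2 to 4 per symbol family. Alternatives were other q thresholds, lists of equal length, the summit by fold, other start sites and distances, other merging and overlaps, narrower windows, windows of one GC range, unique summits and omission of libraries.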

Additional observations from a re-analysis of the deposited data

How the results depend on the processing

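No paired analysis was possible because replicate numbers could pair libraries only across conditions, between which no test was made; the tests made are of differences within each library. At a q value under 0.00001, 2696 regions remained, with 18 in white alone and 20 in brown alone, and coding-centred intervals were 12.5 bp wider than intron-centred ones (main difference -5.42 bp) and shared by all libraries in 2.09 percentage points more. The share of coding-centred intervals was 1.29% with a distance of 3 kb and 1.25% with start sites of every transcript. Beige and white held 34 regions when all intervals were merged before the summit was chosen and 33 when a peak counted only with its own coding summit, which also left 637 in all libraries. The DR1 difference, never called, turned to 0.00792 points at a q value under 0.01, 0.0797 under 0.00001, 0.0615 with 3 kb, 0.0175 with 50 bp to each side and 0.177 at 50% to 60% GC. CRE differed by 0.186 points with 3 kb, where it was called, and by -0.0232 with 50 bp, where NFI (-0.0331) and SP (0.204) were no longer called. At 50% to 60% GC the differences were -0.789 for CEBP, -0.0386 for NFI and -0.664 for SP. Interval width, not called in the main comparison, differed there by -27.1 bp (adjusted p = 0.0409, exact sign-flip permutation test). The cause of these changes was not tested. Equally long lists and the summit by fold changed no call.

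Leaving out 1 library gave 3883 to 4411 regions, a share of 1.58% to 1.67%, and 86 to 271 regions in beige alone, 65 to 719 in white alone, 48 to 499 in brown alone, 72 to 135 in beige and brown, 65 to 149 in beige and white, 13 to 34 in white and brown and 1157 to 1208 in all. With 5 libraries the smallest p is 0.0625, so these give values without a test. Peak lists limit the precision to the number of intervals.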
